A study of Mus musculus with 18 samples.

Results

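Histone lysine demethylases are enzymes that take methyl groups off lysines of histone tails. The 9 genes described here are Kdm1a, Kdm2a, Kdm2b, Kdm3a, Kdm4a, Kdm5a, Kdm5b, Kdm6b and Kdm7a, found as the probe sets annotated with one of these symbols alone. All 9 were found, among 18193 named genes on the array, with 32 probe sets in all. Of these, 23 passed a filter on dim signals and 9 did not, and every gene kept at least 1 probe set. The dim ones had signals between 1.29 and 129 and were not tested. Total RNA of mouse immune cells was measured on 18 arrays in a time course of treatment with a cell wall extract. The arrays fall into 3 groups of 6 by time. These are 0 h, labelled the time zero control, and 1 h and 4 h after treatment. The design text speaks of KO mice, but no label gives a sample's genotype, strain, age, cell type or animal, so none of these is known for any group, and whether all groups share a deletion is not stated. Titles also hold a code number, and these numbers form 3 ranges, 44 to 54, 32 to 37 and 12 to 22. Each range holds 2 arrays of each time. What the codes stand for is not stated. No label says that the arrays of a group came from separate animals or cultures, so the p-values measure the spread between these arrays, part of which may be technical.

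As background, LSD1 (Kdm1a) uses a flavin cofactor, and the other members are JmjC enzymes, which use iron, oxygen and 2-oxoglutarate. Kdm6b (JMJD3) acts on H3K27 methylation, the repressive mark laid down by Polycomb complexes, and is known as a gene induced by bacterial products in mouse macrophages. Kdm4a acts on H3K9 and H3K36, Kdm3a on H3K9, Kdm2a and Kdm2b on H3K36, Kdm7a on H3K9 and H3K27, and Kdm1a, Kdm5a and Kdm5b on H3K4 methylation. The array measures their transcripts, not the enzymes or the marks.

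The deposited values are signal intensities, and differences below are of log2(signal + 16), which understates the change of dim probe sets. Tests were made with limma over 25804 probe sets, with Benjamini-Hochberg adjusted p-values and a threshold of 0.05. For each gene the kept probe set with the highest mean stands for it and is called its representative, and 11733 genes have one. The median signal lay between 89.5 and 105.1 on arrays at 0 h, 85.9 and 107.9 at 1 h, and 74.5 and 87.3 at 4 h. Of the 14 macrophage markers listed, 14 passed the filter, with a mean log2 level of 12.09 to 12.65 on single arrays. Of the T cell, NK cell and erythroid markers, 1 each passed, of 8, 6 and 5 listed and 6, 5 and 3 with a probe set. Of the dendritic cell, B cell and neutrophil markers 3, 2 and 7 passed, of 8, 6 and 12 listed and 7, 5 and 10 with a probe set. Mean levels of lists by time are given with SD and without a test, and single arrays of 0 h and 4 h overlapped for each. Over all genes 11.5% rose and 23.9% fell at 4 h against 0 h. The mean level of 3 dendritic cell markers was 7.08 ± 0.44 at 4 h and 6.24 ± 0.30 at 0 h, and 1 of them rose. That of 2 B cell markers was 6.87 ± 1.06 at 4 h and 8.12 ± 0.96 at 0 h, and 1 of them fell. That of 7 neutrophil markers was 8.40 ± 0.77 at 4 h and 7.93 ± 0.81 at 0 h, and 1 of them rose. That of 7 stromal markers was 9.17 ± 1.47 and 9.51 ± 1.49, and that of 7 cell cycle genes 11.62 ± 0.65 and 11.90 ± 0.60, with 0 called. Of the 14 macrophage markers 3 rose and 2 fell. The part of these lists in the time results below was not tested. Tnf, a cytokine gene used to check the time labels, rose by 6.04 at 1 h (adjusted p = 4.26e-05) and by 6.85 at 4 h (adjusted p = 1.48e-07).

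At 1 h against 0 h, 1 of the 9 representatives rose, that of Kdm6b, and 0 fell. Over all genes with a representative, 0.614% rose and 0.0341% fell. The other 8 representatives had differences between -0.17 for Kdm3a and 0.23 for Kdm2a. At 4 h against 0 h, 4 of the 9 rose, those of Kdm6b, Kdm4a, Kdm3a and Kdm1a, and 2 fell, those of Kdm2b and Kdm5a. Over all genes, 11.5% rose and 23.9% fell. The median difference of the 9 was 0.29, beside -0.19 over all genes. The members were chosen with earlier results of these data known, so these medians are given as a description. At 4 h against 1 h, Kdm4a and Kdm3a rose and Kdm2b and Kdm5a fell, with 9.03% of all genes higher and 18.9% lower. Both 4 h comparisons use the same 4 h arrays.

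**Figure D1:**
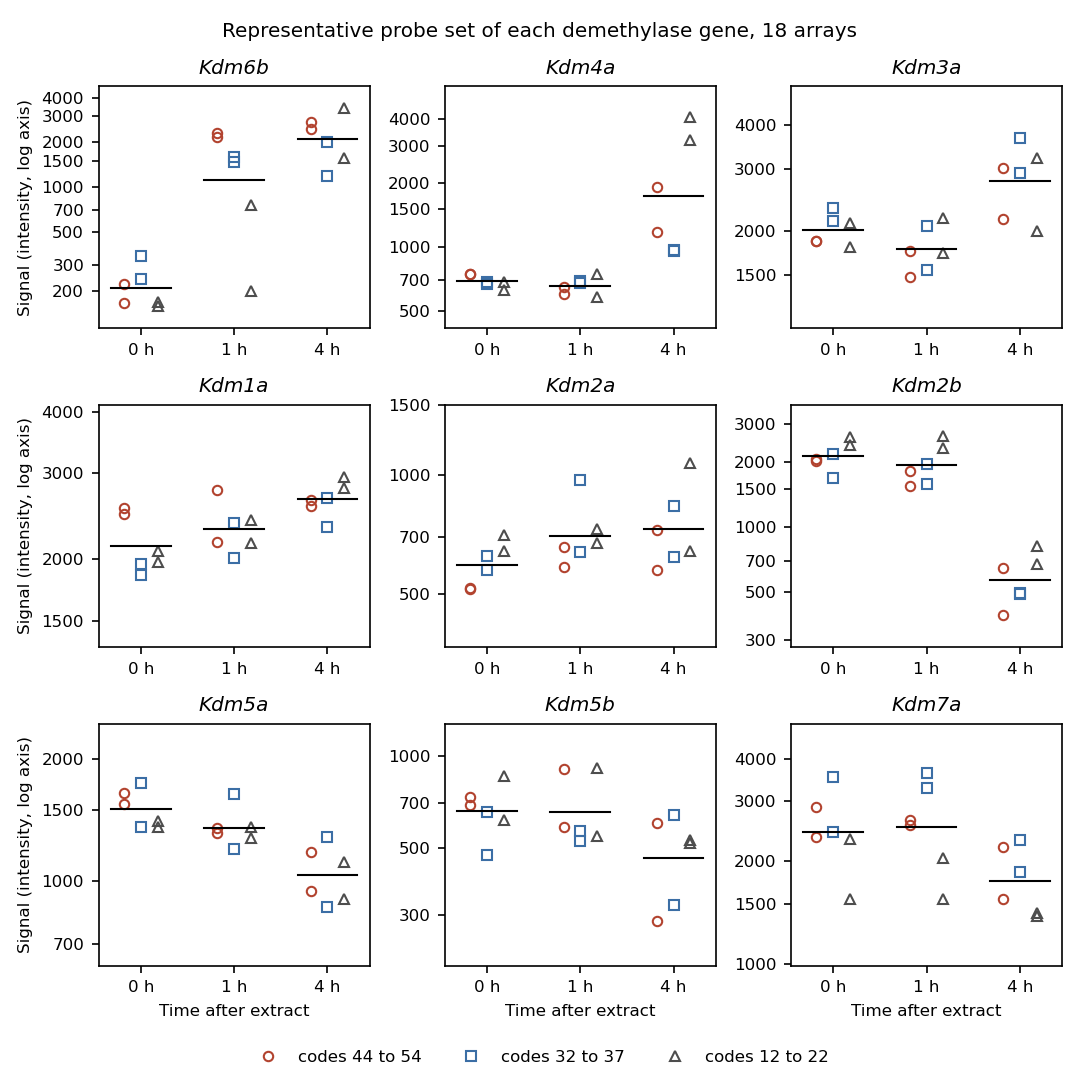
Signal (intensity, log axis) of the representative probe set of each of the 9 genes at 0, 1 and 4 h on 18 arrays. Each point is 1 array, its shape the range of array codes, and each line is the mean of log2(signal + 16) turned back to a signal. Kdm6b is high at 1 h on all arrays but 1 and at 4 h on all, and Kdm2b is low at 4 h on all 6 arrays.

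Kdm6b had the largest rise of the 9 genes. Its representative had signals of 2332 and 2162 (codes 54 and 51), 1589 and 1489 (codes 36 and 33), 766 (code 20) and 200.2 (code 14) at 1 h, against 168, 225, 242, 349, 159 and 170.4 at 0 h (codes 47, 44, 35, 32, 18 and 12). One array at 1 h, code 14, lay inside the 0 h signals, and the other 5 lay above all of them. The same array had the lowest Tnf signal at 1 h, 1557, beside 10864 to 19647 on the other 5 and 34.3 to 263 at 0 h. The mean log2 level of Kdm6b was 10.14 ± 1.30 at 1 h and 7.83 ± 0.41 at 0 h (SD, n = 6 each), a difference of 2.32 ± 0.45 (SE, limma adjusted p = 0.0167). Without the array of code 14 the difference was 2.79 (limma adjusted p = 2.25e-05). Leaving out any 1 of 4 other arrays at 1 h (codes 54, 51, 36 and 33) ended the call, with limma adjusted p up to 0.0575. Fitting the arrays of 0 h and 1 h alone also ended it (limma adjusted p = 0.0738).

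At 4 h the Kdm6b representative had signals of 2743, 2479, 1197, 2027, 1579 and 3419 on codes 49, 46, 37, 34, 22 and 16. Every one of these lay above every 0 h array. The difference at 4 h against 0 h was 3.23 ± 0.45 (SE, limma adjusted p = 3.44e-05), and that at 4 h against 1 h was 0.91 ± 0.45 (adjusted p = 0.155), which did not pass. Within codes 44 to 54, 32 to 37 and 12 to 22 the 1 h difference was 3.42, 2.34 and 1.19, and the 4 h difference was 3.64, 2.36 and 3.70. These orders differ between the times, and neither response differed between the ranges past the threshold (limma adjusted p = 1.00 at 1 h and 0.692 at 4 h).

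The other 2 probe sets of Kdm6b moved the same way against 0 h. Both were dim at 0 h, with median signals of 60.5 for 1447612_x_at and 53.5 for 1442643_at. They lay above the median of their array on 13 and 11 of 18 arrays, so they passed the filter through arrays at 1 h and 4 h. Their differences are therefore given as a description. Probe set 1447612_x_at rose by 2.71 at 1 h (adjusted p = 0.0103) and 3.57 at 4 h (adjusted p = 3.2e-05). Probe set 1442643_at rose by 2.19 at 1 h (adjusted p = 0.00816) and 1.74 at 4 h (adjusted p = 0.00212). For this probe set the 1 h level was the higher one, with a difference at 4 h against 1 h of -0.45 (adjusted p = 0.436), while the representative had 0.91. Probe set 1447612_x_at had 0.86 (limma adjusted p = 0.227). So 1442643_at alone of the 3 had the higher level at 1 h, and none of the 3 passed the threshold at 4 h against 1 h. Across the 18 arrays, which share the times, their levels correlated at r = 0.905, 0.824 and 0.868. A further probe set carries the symbol Kdm6b beside another one and was left out.

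**Figure D2:**
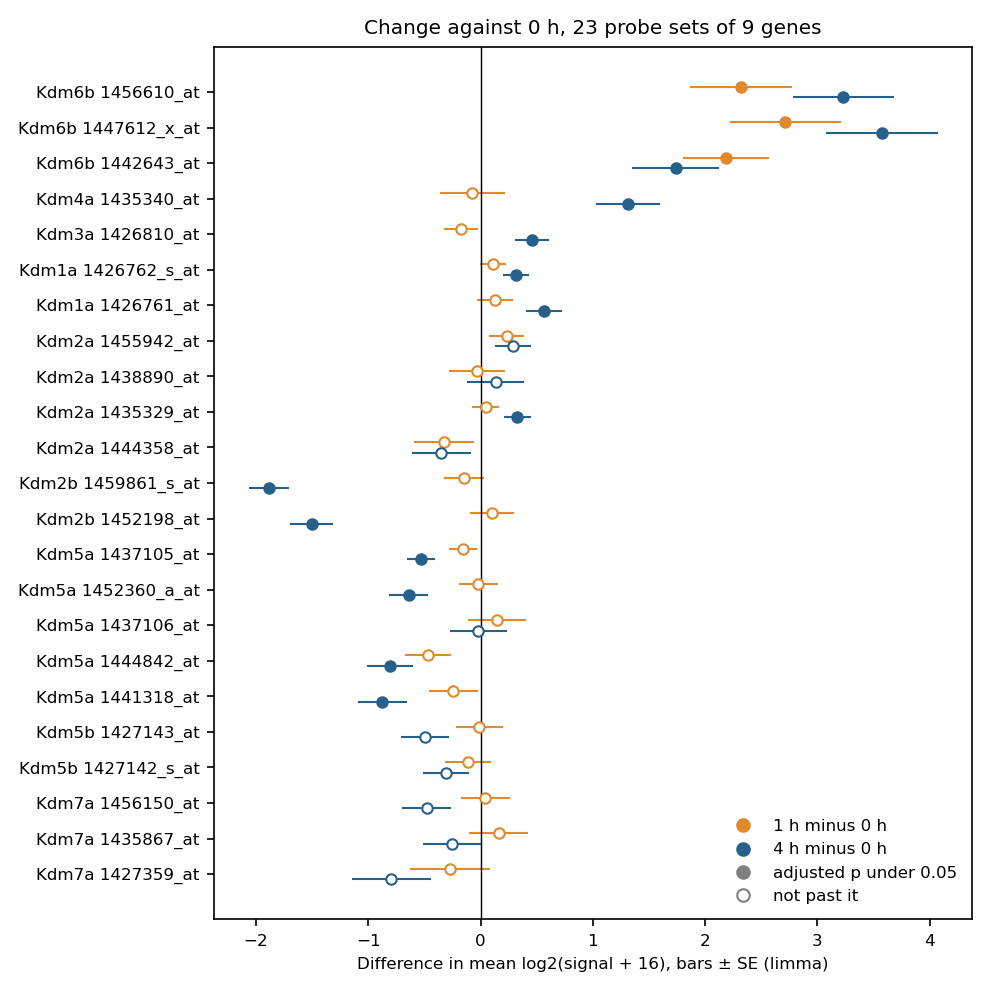
Difference in mean log2(signal + 16) from 0 h at 1 h and at 4 h for the 23 kept probe sets, with the SE of the limma fit as bars and filled points where the adjusted p was under 0.05. At 1 h the filled points are those of Kdm6b, and at 4 h 8 probe sets are filled on the right and 6 on the left. Of all 25804 probe sets, 158 rose and 36 fell at 1 h, and 2563 rose and 5969 fell at 4 h.

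Kdm4a did not change at 1 h past the threshold (-0.07, adjusted p = 1.00) and rose at 4 h. Its single kept probe set had signals of 1176 and 1921 (codes 49 and 46), 971 and 956 (codes 37 and 34), and 4091 and 3197 (codes 22 and 16) at 4 h, against 625 to 746 with a median of 685 at 0 h. All 4 h arrays lay above all arrays of 0 h and 1 h, and those of codes 12 to 22 were the highest. The difference was 1.31 ± 0.29 against 0 h (SE, limma adjusted p = 0.00195) and 1.39 ± 0.29 against 1 h (adjusted p = 0.00186).

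The 4 h rise of Kdm4a differed between the ranges of codes. It was 1.00 within codes 44 to 54, 0.50 within codes 32 to 37 and 2.44 within codes 12 to 22, with 2 arrays of each time in a range. A limma F test of the difference between ranges gave an adjusted p of 0.0292, and Kdm4a was the 1 representative of 9 past the threshold, beside 1.13% of all genes. Over 24 alternatives the adjusted p lay between 0.00683 and 0.129, and the call was lost in 12 of them, 10 of which left out 1 array. The other 2 were no filter on dim probe sets (adjusted p = 0.100) and arrays centred on their median (adjusted p = 0.0569). Cell type markers also differed between the ranges. The mean log2 level of 14 macrophage markers was 12.50 in codes 44 to 54, 12.45 in codes 32 to 37 and 12.14 in codes 12 to 22. Every array of codes 12 to 22 (12.09 to 12.21) lay below all arrays of the other ranges. The mean log2 level of 7 stromal markers was 10.99 in codes 44 to 54, 9.34 in codes 32 to 37 and 7.63 in codes 12 to 22. That of 7 neutrophil markers was 7.32, 8.41 and 8.91 in the same order, that of 2 B cell markers 6.65, 7.15 and 8.94, and that of 7 cell cycle genes 11.18, 12.41 and 11.86. Their part in the Kdm4a result was not tested. In such bulk samples fewer cells of a type and less RNA per cell cannot be told apart.

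**Figure D3:**
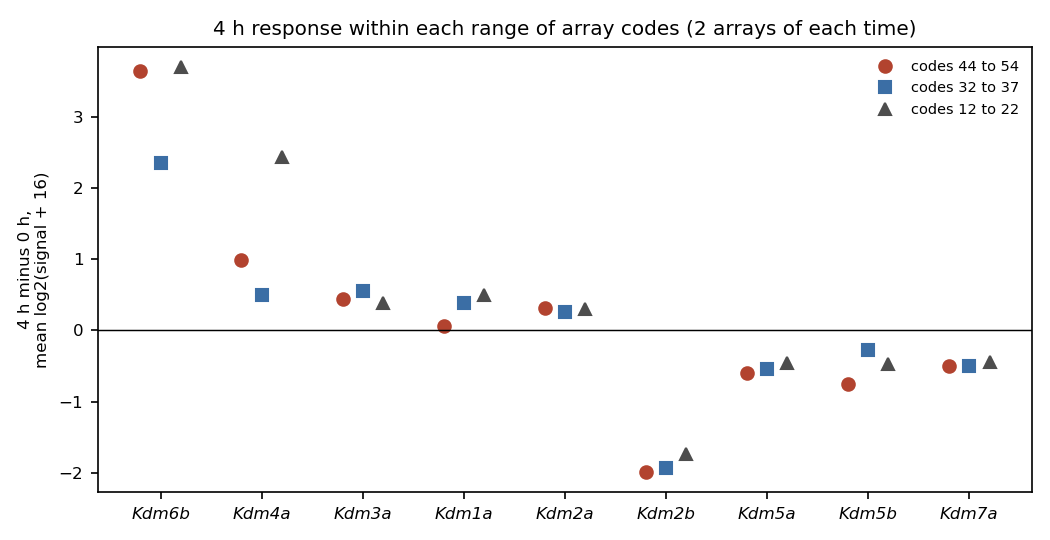
Difference in mean log2(signal + 16) at 4 h against 0 h within each range of array codes, for the representative of each of the 9 genes. Each point rests on 2 arrays of each time. Kdm4a spreads from 0.50 to 2.44, and the 3 points of Kdm2b lie between -1.99 and -1.73.

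Kdm3a rose at 4 h by a smaller amount. It had signals of 2156, 3016, 2919, 3678, 2000 and 3225 at 4 h (codes 49, 46, 37, 34, 22 and 16), against 1801 to 2317 with a median of 1985 at 0 h. The arrays of codes 49 and 22 lay inside the 0 h signals. The difference was 0.46 ± 0.15 against 0 h (SE, limma adjusted p = 0.027), a call lost in 11 of 29 alternatives, and 0.64 ± 0.15 against 1 h (adjusted p = 0.00532).

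Promoter sequence is shown for the 3 genes called higher at 4 h that RefSeq's promoter table (GRCm38.p6) holds, and for Kdm2b, which fell most. Each is the 250 bases before an annotated start, on the minus strand, 5′ to 3′. The capitals mark the AP-1 letters TGANTCA, searched on both strands. Kdm4a is at chr4:118180044-118180293, Kdm3a at chr6:71632687-71632936, the one of its 3 windows with these letters, Kdm1a at chr4:136602724-136602973, and Kdm2b at chr5:122989100-122989349, the farthest upstream of its 4 windows.
Kdm4a: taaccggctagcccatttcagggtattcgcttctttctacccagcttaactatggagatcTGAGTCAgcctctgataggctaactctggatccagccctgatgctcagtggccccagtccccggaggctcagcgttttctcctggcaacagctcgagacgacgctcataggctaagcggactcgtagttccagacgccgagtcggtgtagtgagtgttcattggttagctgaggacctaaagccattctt
Kdm3a: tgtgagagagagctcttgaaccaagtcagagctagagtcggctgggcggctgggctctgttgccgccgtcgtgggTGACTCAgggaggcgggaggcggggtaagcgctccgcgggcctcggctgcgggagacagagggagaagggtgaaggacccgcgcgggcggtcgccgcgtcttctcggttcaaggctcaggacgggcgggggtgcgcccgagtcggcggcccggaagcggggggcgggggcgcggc
Kdm1a: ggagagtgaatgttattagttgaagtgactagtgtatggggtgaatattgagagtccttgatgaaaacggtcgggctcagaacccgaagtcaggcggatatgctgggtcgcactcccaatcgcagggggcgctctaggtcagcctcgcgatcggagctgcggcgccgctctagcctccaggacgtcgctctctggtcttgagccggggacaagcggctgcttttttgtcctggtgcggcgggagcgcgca
Kdm2b: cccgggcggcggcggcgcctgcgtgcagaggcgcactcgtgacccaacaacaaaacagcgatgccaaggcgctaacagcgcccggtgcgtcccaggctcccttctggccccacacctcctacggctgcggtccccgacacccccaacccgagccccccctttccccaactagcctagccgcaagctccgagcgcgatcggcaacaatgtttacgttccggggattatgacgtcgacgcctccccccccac
The AP-1 letters begin 190 bases before the start in Kdm4a and 175 bases before it in Kdm3a. The other 2 windows of Kdm3a and those of Kdm1a, Kdm2b, Kdm5b and Kdm7a do not hold them, so 2 of the members' 11 windows do. They occur in 6.75% of the 32851 windows of all genes. The CRE letters TGACGTCA occur in 1.55% of all windows and in 0 of the 11 windows of the 6 members in the table, Kdm1a, Kdm2b, Kdm3a, Kdm4a, Kdm5b and Kdm7a. The hypoxia response letters ACGTG occur in 16.6% of all windows, and among the members in windows of Kdm5b and Kdm7a. These matches describe the letters in the windows, not binding.

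Kdm1a rose slightly at 4 h. Its representative had signals of 2330 to 2950 with a median of 2656 at 4 h, against 1857 to 2546 with a median of 2025 at 0 h, and the groups overlapped. The difference was 0.31 ± 0.11 (SE, limma adjusted p = 0.0436), and the call was lost in 16 of 29 alternatives. The other probe set, 1426761_at, rose by 0.57 ± 0.16 (adjusted p = 0.0108), lost only within single ranges of codes among the 29 alternatives run. Within codes 44 to 54 the representative's difference was 0.06, against 0.38 within codes 32 to 37 and 0.50 within codes 12 to 22, and the difference between ranges did not pass (adjusted p = 0.743).

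Kdm2b, which recruits a Polycomb complex to CpG-rich DNA, fell at 4 h on both of its probe sets. The representative had signals of 645 and 391 (codes 49 and 46), 491 and 495 (codes 37 and 34), and 818 and 677 (codes 22 and 16) at 4 h, against 1694 to 2623 with a median of 2117 at 0 h. No 4 h array reached the lowest array of 0 h or of 1 h, 1694 and 1543. The mean log2 level was 9.19 ± 0.38 at 4 h and 11.08 ± 0.22 at 0 h (SD, n = 6 each), a difference of -1.88 ± 0.18 (SE, limma adjusted p = 6.63e-07). At 1 h against 0 h it was -0.15 (adjusted p = 1.00). The other probe set, 1452198_at, fell by 1.50 at 4 h against 0 h (adjusted p = 1.51e-05), with no overlap either. Both calls held in all 29 alternatives, and within the ranges the representative's difference was -1.99, -1.93 and -1.73 in codes 44 to 54, 32 to 37 and 12 to 22. Its paralogue Kdm2a had 576 to 1073 with a median of 686 at 4 h, against 516 to 707 with a median of 601 at 0 h, so the groups overlapped. Kdm2a did not pass on its representative (0.29, adjusted p = 0.17), while 1 of its 3 other kept probe sets, 1435329_at, rose by 0.33 (adjusted p = 0.0406), a call lost in 12 of 29 alternatives.

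Among the H3K4 enzymes Kdm5a fell at 4 h. Its representative had signals of 863 to 1282 with a median of 1029 at 4 h, against 1355 to 1747 with a median of 1478 at 0 h, with no overlap. The difference was -0.53 ± 0.12 (SE, limma adjusted p = 0.00316) against 0 h and -0.38 ± 0.12 against 1 h (adjusted p = 0.0338). The call against 1 h was lost in 13 of 29 alternatives, 6 of which left out 1 array. Of its 5 kept probe sets 4 fell at 4 h against 0 h, and 1437106_at did not pass (-0.02, adjusted p = 0.967). With arrays centred on their median the representative's difference was -0.28 (adjusted p = 0.163). Kdm5b had signals of 287 to 640 with a median of 523 at 4 h, against 472 to 859 with a median of 671 at 0 h, and the groups overlapped. Its difference was -0.50 (adjusted p = 0.0832) on its representative and -0.31 (adjusted p = 0.257) on its other kept probe set.

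Kdm7a had signals of 1379 to 2303 with a median of 1703 at 4 h, against 1549 to 3535 with a median of 2399 at 0 h, with overlap. It did not pass at 4 h against 0 h (-0.48, adjusted p = 0.104), but with the ranges of codes as a block the same difference had an adjusted p of 0.0112. Its level differed between the ranges. The representative had 1544 to 2894 with a median of 2463 in codes 44 to 54, and 1862 to 3626 with a median of 2861 in codes 32 to 37, against 1379 to 2320 with a median of 1548 in codes 12 to 22. The groups overlapped, and the differences with time in the fit were 0.47 ± 0.14 for codes 44 to 54 (SE, limma adjusted p = 0.027) and 0.71 ± 0.14 for codes 32 to 37 (adjusted p = 0.00246). The first call was lost in 6 of 24 alternatives, with adjusted p up to 0.0716, and the second in 0 of 24. Probe set 1435867_at had 0.80 (adjusted p = 0.00101) and 0.82 (adjusted p = 0.00117) in the same 2 comparisons. The third kept probe set, 1427359_at, did not pass in either (0.64 and 0.35). Kdm2b lay lower in both ranges than in codes 12 to 22, by -0.47 ± 0.12 (adjusted p = 0.0138) and -0.48 ± 0.12 (adjusted p = 0.0127).

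For codes 44 to 54 against 12 to 22, 1 of the 9 representatives was higher and 1 lower, beside 11.0% and 11.3% of all genes. For codes 32 to 37 against 12 to 22 the counts were also 1 and 1, beside 11.7% and 8.97%. For codes 44 to 54 against 32 to 37 they were 0 and 0, beside 9.46% and 11.3%. Probe sets other than the representatives also differed from codes 12 to 22. Kdm2a 1438890_at was higher by 0.62 (adjusted p = 0.0262) in codes 44 to 54 and 0.67 (adjusted p = 0.0196) in codes 32 to 37. The Kdm2a representative went the other way without passing, by -0.30 (limma adjusted p = 0.147) and -0.07 (adjusted p = 0.792). Kdm2a 1435329_at also lay lower in both ranges, and 1444358_at lower in codes 44 to 54 alone, both without passing. Kdm5a 1452360_a_at was higher by 0.41 and 0.44 in the same order (adjusted p = 0.0335 and 0.0258). The Kdm5a representative had 0.10 in both without passing (limma adjusted p = 0.616 and 0.595). Kdm5a 1437106_at and 1441318_at also lay higher in both ranges without passing. Kdm5a 1444842_at lay lower in both without passing, with mean log2 levels of 7.69 and 7.35, beside 7.76 in codes 12 to 22. Kdm5b 1427142_s_at was lower in codes 32 to 37 alone of the 2 comparisons (-0.53, adjusted p = 0.0307). The macrophage, stromal, neutrophil, B cell and cell cycle levels given for Kdm4a differ between the same ranges, and their part in these differences was not tested.

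**Figure D4:**
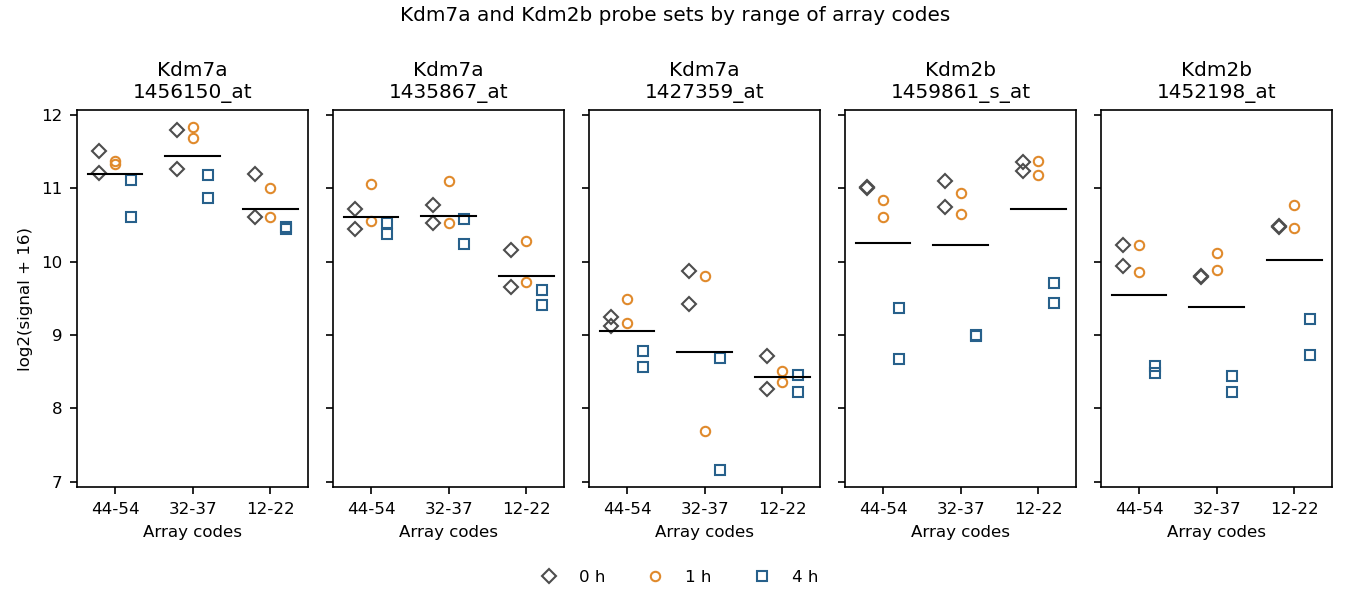
log2(signal + 16) of the 3 kept probe sets of Kdm7a and both of Kdm2b by range of array codes, 6 arrays a range. Marker shapes give the time and lines the mean of a range. The Kdm7a representative has means of 11.19, 11.44 and 10.72 in codes 44 to 54, 32 to 37 and 12 to 22.

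The genes whose levels followed a member most closely over the 18 arrays, out of 11733, are given as a description, since the arrays share the times. For Kdm6b these were Ccl7, a chemokine gene (r = 0.969), 2500002B13Rik (r = 0.965) and Tnfaip2 (r = 0.964). For Kdm2b they were Gcnt1, a glycosyltransferase gene (r = 0.983), Bbip1 (r = 0.983) and Pdcd4, an inhibitor of translation (r = 0.978). For Kdm4a they were Shisa3 (r = 0.957), the kinase gene Pim2 (r = 0.939) and Akna (r = 0.936). Kdm5a was followed by Mr1 (r = 0.923), Hsd17b4 (r = 0.919) and Dcaf17 (r = 0.917), and Kdm3a by Phf23 (r = 0.925), Atp6v0b (r = 0.879) and BC031181 (r = 0.876). For Kdm1a they were Slc16a10 (r = 0.872), Kif3c (r = 0.86) and Adam17, the TNF-releasing protease (r = 0.857).

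Other genes of histone lysine methylation were also tested, and 0 of them passed at 1 h. This is near the shares over all genes, of which 0.614% rose and 0.0341% fell at 1 h. Over all genes 11.5% rose and 23.9% fell at 4 h against 0 h. Of 16 other demethylases and JmjC proteins measured, 4 rose (25%) and 5 fell (31.2%) at 4 h against 0 h, with a median of -0.17. Jmjd1c fell by 1.55 (adjusted p = 0.000374), Kdm6a, the X-linked paralogue of Kdm6b, fell by 0.88 (adjusted p = 0.0027), and Jmjd6 and Riox2 rose by 1.08 and 0.98. Of 26 methyltransferases 4 rose (15.4%) and 10 fell (38.5%), with a median of -0.39. Kmt5a, which monomethylates H4K20, rose by 1.41, while Setd7, Kmt5c and Setd1b fell by 1.82, 1.59 and 1.17. Of 23 partner subunits 2 rose (8.7%) and 6 fell (26.1%), near the shares over all genes, with a median of -0.13. Bcor and Rnf2, subunits of the complex that Kdm2b recruits, rose by 0.86 and 0.75, and Pcgf1 of the same complex and Rcor3, a partner of Kdm1a, fell by 0.89 and 0.63. Of 9 comparison genes of Kdm6b and hypoxia 5 rose (55.6%), 0 fell and 4 did not pass. Among those that rose were Slc2a1 (2.47), Hif1a (1.15), Nfkbia (1.09) and Tnf. The list was chosen with earlier results of these data known, and Tnf also served as the check of the time labels.

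The Y-linked demethylase genes Kdm5d and Uty, chosen after their values were seen, are described by array, since each time holds both high and low arrays of them. The Kdm5d signal lay at 174 to 362 on the arrays of codes 18, 20, 22, 32, 33, 34, 44, 46 and 51 and at 3.73 to 39.2 on the other 9. In each range and at each time 1 of the 2 arrays is among the high ones. Uty had signals of 35.4, 121, 52.5, 138, 39.5 and 140.4 at 4 h (codes 49, 46, 37, 34, 16 and 22), against 29.3, 278, 90.3, 317, 57.5 and 263 at 0 h (codes 47, 44, 35, 32, 12 and 18). The highest 4 h array lay below 3 of the 0 h arrays, and the groups overlapped.

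**Figure D5:**
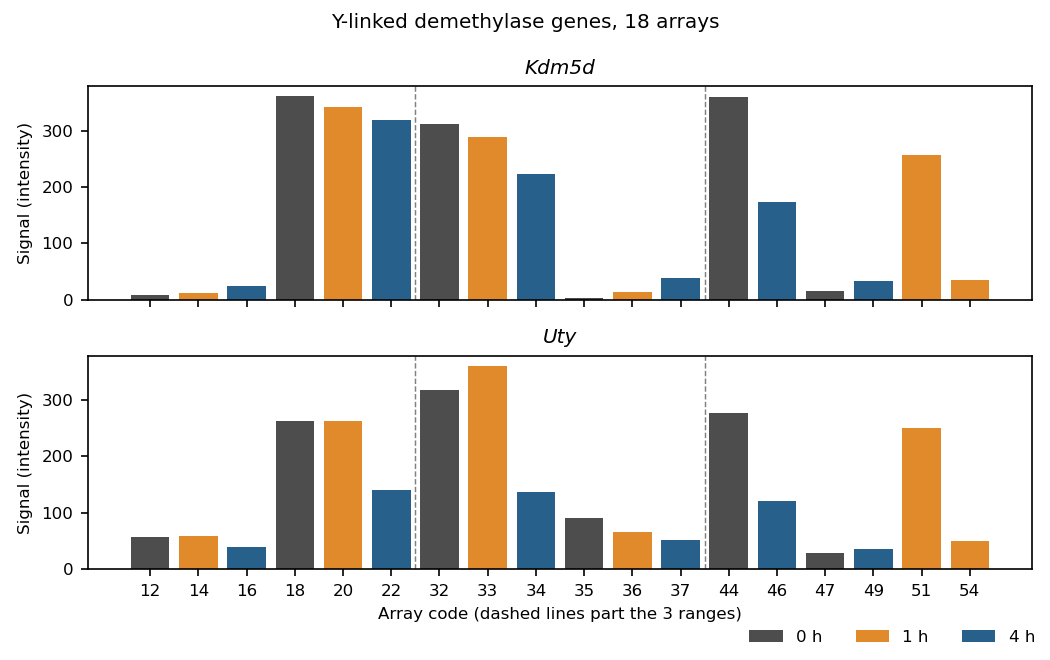
Signal (intensity) of Kdm5d and Uty on the 18 arrays in the order of their codes, coloured by time, with dashed lines between the 3 ranges. Within each range and time 1 array has a tall Kdm5d bar and 1 a low one.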

How the data were processed

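Total RNA of 18 samples was hybridised to Affymetrix 3' expression arrays. The authors deposited linear signal intensities, processed with MAS5 and GCOS per the submitters' processing notes, without versions or settings. The trimmed mean of the deposited intensities was 500.0 on each array, so a broad shift between times appears in the median.

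Samples were grouped by the time in their own labels. Probe sets were named with the supplied platform annotation, and 34958 of 45101 carry 1 symbol and 932 several. Probe sets above the median of their array on at least 4 of 18 arrays were kept, which left 25804, or 57.3% of those that are not controls. The deposited intensities were taken as log2(signal + 16). Times were compared without covariates, ranges of array codes with time in the model, and responses between ranges by an interaction F test, all in limma 3.58.1 with R 4.3.3. The fit was tested on simulated data for 4 h against 0 h. It called 10% of 1.5-fold, 64% of 2-fold, 90% of 4-fold and 94% of 8-fold changes. The simulation changed 50 probe sets of each size among 25804, while 8532 passed in the data. Its cutoff after adjustment was therefore stricter, and these shares do not carry over to the members. A member that did not pass may still have changed by a small amount.

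All 9 members are named with all kept probe sets, with the 3 genes most correlated with each member that passed, and up to 4 genes of each of 4 lists by size of change at 4 h. Members and lists were chosen with earlier results of these data known. Alternatives changed the offset, filter, normalization, block and arrays used. The number of arrays limits the precision. Promoter letters come from RefSeq, and the bases after a start were not used.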

Additional observations from a re-analysis of the deposited data

Results flagged for a closer look

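The 4 h response of Kdm4a differed between the ranges of array codes, with a limma adjusted p of 0.0292.

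In 3 of 69 groups of 6 arrays of the kept probe sets, 1 array lay far from the other 5, and chance gives this in about 1 group in 20. The array of code 46 had the lowest signal of Kdm2a probe set 1444358_at at 4 h, 23.6. The array of code 35 had the lowest signal of Kdm6b probe set 1442643_at at 0 h, 4.02. The array of code 37 had the lowest signal of Kdm7a probe set 1427359_at at 4 h, 127.2.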

How the results depend on the processing

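Of 97 results for the members' probe sets, 29 passed the threshold, and 8 of these held under every alternative run, out of 31 settings, with no called value reversed. Of the 68 that did not pass, 28 changed sign under some setting. No paired analysis was made, because the labels tie no array to another and replicate numbers follow the accession order. With the ranges of codes as a block 11065 probe sets passed at 4 h against 0 h and 8763 at 4 h against 1 h. At 1 h against 0 h 339 passed with this block, where 194 did without it. That count was 104 with only the arrays of the 2 times, 55 within codes 32 to 37, 0 within codes 12 to 22 and 108 to 418 with 1 array left out, the highest without the 1 h array of code 14. At 4 h against 0 h 8532 passed, 5672 with a filter at the 75th percentile, and 3783, 1184 and 4001 within codes 44 to 54, 32 to 37 and 12 to 22. At 4 h against 1 h 6286 passed, and 1833, 490 and 3399 within the same ranges. The 4 h response differed between ranges for 216 probe sets, 326 with an offset of 64, 57 with no filter, 429 with the 75th percentile filter and 40 to 209 with 1 array left out. The 1 h response differed for 0 by limma (919 at an unadjusted p under 0.05), 1 with an offset of 64, 1 with the 75th percentile filter and 0 to 25 with 1 array left out. The cause was not tested.

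Scaling moved the 4 h split. Of the 8532 probe sets, 2563 were higher and 5969 lower, beside 3176 and 3881 after quantile normalization and 4197 and 2681 with arrays centred on their median. The median difference over all probe sets was -0.22, -0.07 and 0.04 in turn. At 4 h against 1 h 1988 were higher and 4298 lower, beside 2399 and 2694, and 3449 and 1899. No representative of the 9 genes changed sign at 4 h against 0 h under either scaling. After quantile normalization Kdm1a (0.23) and Kdm3a (0.39) no longer passed, and with arrays centred on their median Kdm5a (-0.28) no longer passed and Kdm2a (0.54) did.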

Other observations

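Eif2s3y, a Y-linked gene outside the demethylase family, had signals of 0.87 to 1729 in codes 12 to 22, 3.20 to 1414 in codes 32 to 37 and 2.87 to 1060 in codes 44 to 54. Xist, the X-inactivation transcript, had 1995 to 13257 over the 18 arrays. The labels give no sex for any sample.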
